A study of Mus musculus with 8 samples.

Results

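Sox2, Sox21, Sox4, Sox11, Sox12, Sox5, Sox6 and Sox13 are the 8 listed genes of the SoxB, SoxC and SoxD families, out of 21887 protein-coding genes in the RefSeq table of the mouse build mm10. SoxB was represented by 2 genes (Sox2 and Sox21), SoxC by 3 (Sox4, Sox11 and Sox12) and SoxD by 3 (Sox5, Sox6 and Sox13). The genes were chosen by name and not by a measured value, although earlier results of these data were known, and all 8 were found in the table. The peaks considered for each gene were those within 1 kb of either gene end, in the gene body, or within 50 kb on both sides, and this whole window is called the locus. Chromatin immunoprecipitation and sequencing (ChIP-seq) of the chromatin remodelers Chd7 and Chd8 gave the peaks.

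The 8 libraries were 2 Chd7 ChIPs (anti-Chd7 from Cell Signaling), 1 Chd8 ChIP (anti-Chd8 from Bethyl), 2 mock ChIPs with rabbit IgG and 3 inputs without antibody. Chd7 replicate 1 has a mock of its own, and the other mock is the control of both Chd7 replicate 2 and Chd8. All came from wild-type mice at postnatal day 7, from cortex and corpus callosum, and no allele or treatment separates the groups. Magnetic sorting selected cells positive for O4, which marks late precursors and immature oligodendrocytes, and OPC (oligodendrocyte precursor cell) is the name given to them in the labels. Chd8 has a single library, so no Chd8 value has a replicate error, and the sources used here do not say whether the replicates of Chd7 came from separate animals.

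Sox proteins bind DNA through an HMG box, and members of a family are closely alike and often overlap in function. In neural tissue the SoxB protein Sox2 keeps progenitors undifferentiated, whereas Sox21 represses genes that its relatives activate. SoxC proteins are transcriptional activators of progenitors and young postmitotic neurons; in mouse oligodendrocytes forced Sox4 expression blocks myelination, and in mouse adult neural stem cells Chd7 is known to be needed for Sox4 and Sox11 expression. SoxD proteins carry a coiled coil for dimerization and no known activation or repression domain of their own, and Sox5 and Sox6 restrain the maturation of oligodendrocyte precursors in the mouse spinal cord.

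The 250 bases upstream of an annotated start are printed for 5 genes, because these starts lay under or beside the peaks on which the results below turn. Sox11 had the start with peaks in both Chd7 libraries, Sox21 and the internal Sox6 start each had 1 Chd7 library with Chd8, and Sox4 and Sox2 had Chd8 alone over these bases. The sequences are from RefSeq, assembly GRCm38.p6 (mm10), written 5′ to 3′ on the gene's strand and ending at the base before the start. Capitals mark matches to 4 motifs, each searched on both strands. The Sox core reads ACAAT on this strand or else ATTGT when it lies on the other one. The GC box reads GGGCGG on this strand or else CCGCCC when it lies on the other one. The CCAAT box reads CCAAT here and, from the other strand, ATTGG as the reverse complement. The TATA box reads TATAAA here and, from the other strand, TTTATA as the reverse complement. No 2 marked matches overlap in these 5 stretches.
Sox11, minus strand, chr12:27342719-27342968: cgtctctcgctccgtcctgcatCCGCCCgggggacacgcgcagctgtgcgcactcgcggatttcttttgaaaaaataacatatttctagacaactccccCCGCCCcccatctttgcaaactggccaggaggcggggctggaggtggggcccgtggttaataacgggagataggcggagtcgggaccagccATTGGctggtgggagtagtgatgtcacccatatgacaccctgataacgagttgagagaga
Sox21, minus strand, chr14:118237031-118237280: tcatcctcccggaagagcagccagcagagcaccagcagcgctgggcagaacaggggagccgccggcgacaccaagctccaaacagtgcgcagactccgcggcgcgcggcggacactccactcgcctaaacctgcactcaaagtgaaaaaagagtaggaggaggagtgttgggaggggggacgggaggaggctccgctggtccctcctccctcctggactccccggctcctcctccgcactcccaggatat
Sox6, internal start, minus strand, chr7:115824711-115824960: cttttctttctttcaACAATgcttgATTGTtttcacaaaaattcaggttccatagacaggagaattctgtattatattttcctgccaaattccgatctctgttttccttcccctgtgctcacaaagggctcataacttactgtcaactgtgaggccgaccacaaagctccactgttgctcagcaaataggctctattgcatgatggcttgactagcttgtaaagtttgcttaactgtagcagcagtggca
Sox4, minus strand, chr13:28953700-28953949: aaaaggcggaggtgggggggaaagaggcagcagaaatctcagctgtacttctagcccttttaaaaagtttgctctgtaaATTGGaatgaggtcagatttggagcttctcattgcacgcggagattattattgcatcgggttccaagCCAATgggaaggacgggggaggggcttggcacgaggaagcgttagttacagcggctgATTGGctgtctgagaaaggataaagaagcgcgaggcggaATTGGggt
Sox2, plus strand, chr3:34649745-34649994: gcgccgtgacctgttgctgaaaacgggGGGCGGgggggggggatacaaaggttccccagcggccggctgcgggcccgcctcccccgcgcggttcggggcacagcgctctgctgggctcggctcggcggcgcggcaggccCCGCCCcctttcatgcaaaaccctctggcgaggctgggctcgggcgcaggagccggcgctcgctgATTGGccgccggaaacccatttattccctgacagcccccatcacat

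At Sox11 the Chd7 replicate 1 peak covered all 250 of these bases, the Chd7 replicate 2 peak covered 115 and the Chd8 peak covered 250. The Sox11 stretch held 2 GC boxes and 1 CCAAT box, 58.0% G or C and 17 CpG dinucleotides. At Sox21 Chd7 replicate 2 covered 137 bases and Chd8 covered 250, in a stretch with 65.2% G or C, 17 CpG and none of the 4 motifs. The internal Sox6 stretch was covered for 249 bases by Chd7 replicate 1 and for 250 by Chd8. It was the only one of the 5 printed with a Sox core, of which it held 2, and it had 41.6% G or C and 2 CpG. Sox cores also stood in stretches not printed, before the Sox5 start and the Sox6 starts at 115995086 and 115801609. No ChIP peak covered any of those bases. Chd8 covered 250 bases at Sox4, where 4 CCAAT boxes stood in 50.8% G or C with 11 CpG. At Sox2 Chd8 covered 173 bases, and the stretch held 2 GC boxes and 1 CCAAT box with 72.0% G or C and 27 CpG. Across the 21263 starts of protein-coding genes in the promoter table the median was 55.6% G or C and 10 CpG. Of those starts, 25.1% held a Sox core, 42.6% a GC box, 35.4% a CCAAT box and 11.6% a TATA box. The bound stretches therefore ranged from CpG-rich to CpG-poor, and no motif was present in all 5. None of the 5 stretches was covered by a mock or input peak.

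The peak lists held 5282 and 6292 peaks for the Chd7 replicates and 18415 for Chd8, against 89 and 98 for the mocks and 109486, 178478 and 91628 for the inputs. Peaks that touched a mock peak were removed, which left 5218, 6237 and 18350 ChIP peaks, and the 1383 spans in which peaks of both Chd7 replicates overlapped by at least 1 bp are called reproducible Chd7 regions. The fold of a peak is its enrichment over the local background of the authors' peak caller. Fold depends on each library, so it is compared here within a list only, as the percentile of the peak in its own list. Read depth is unknown, as peak lists carry no reads; intervals are 95% exact (Clopper-Pearson) and cover counting error only. Input peaks were numerous, and 46.3% of all Chd8 peaks touched an input peak, so the inputs are given beside each gene, and the part of the input signal in any ChIP peak was not tested. As a check of the labelled cells, a Chd8 peak lay at an end of 5 of 6 oligodendrocyte lineage marker genes, 3 of 8 neuron, 1 of 5 astrocyte, 1 of 4 microglia and 0 of 3 endothelial marker genes, against 41.0% of all protein-coding genes. Input 3 had peaks at the ends of 4, 5, 2, 0 and 2 of the genes in these lists, in that order, against 45.2% of all genes. These counts are occupancy and not expression, and they do not identify the cells.

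Chd8 lay at the ends of nearly all of the 8 listed Sox genes, whereas Chd7 was found there in both libraries at Sox11 alone. A Chd8 peak lay within 1 kb of an end of 7 of the 8 genes (87.5%, 47.3 to 99.7), all but Sox13, against 41.0% of all protein-coding genes. Intervals for these 8 chosen genes describe the counts and are not a test. A reproducible Chd7 region lay at an end of 1 of the 8, Sox11 (12.5%, 0.316 to 52.7), against 4.83% of all genes. Chd7 replicate 1 had a peak at 1 of the 8 gene ends, again Sox11 (10.4% of all genes). Chd7 replicate 2 had one at 5 of the 8, namely Sox2, Sox21, Sox11, Sox12 and Sox5 (17.0% of all genes). The replicates thus shared Sox11 and differed at the other 4 genes. Both mocks had 0 of the 8 (0.0183% and 0.0137% of all genes). The inputs had peaks at the ends of 2, 3 and 4 of the 8 genes, against 21.9%, 28.4% and 45.2% of all genes, so the input counts were near their backgrounds. The Chd8 count fell to 5 of 8 (Sox2, Sox21, Sox4, Sox11 and Sox6, with 13.1% of all genes) when peaks that touched any input peak were left out, and to 0 when only peaks with a fold of at least 5 were kept. At a fold of at least 5, 17.8% of all genes still had a Chd8 peak at an end.

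**Figure D1:**
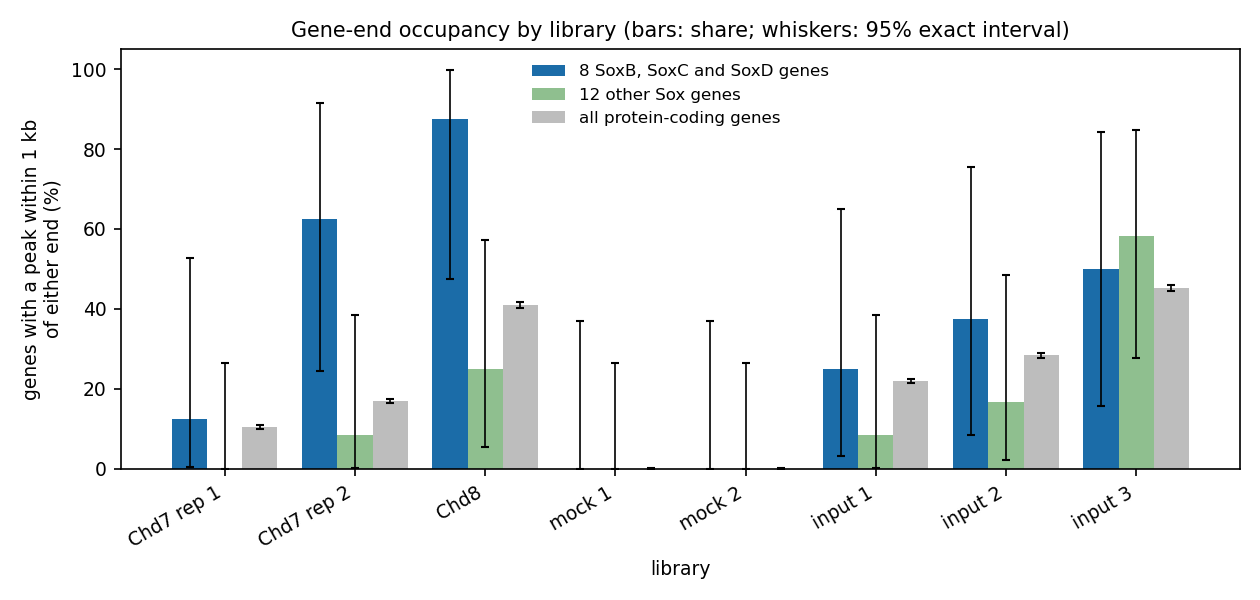
Share of genes with a peak within 1 kb of either end (y axis, percent) in each of the 8 libraries (x axis). Bars stand for the 8 listed SoxB, SoxC and SoxD genes, the 12 other Sox genes (the SoxB genes Sox1, Sox3 and Sox14 included) and all protein-coding genes. Whiskers are 95% exact intervals, which are not a test. Chd8 reached 87.5% of the 8 genes, against 41.0% of all genes.

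Chd8 folds at these gene ends lay near or below the middle of all gene ends in the list. The highest Chd8 fold at an end was 4.95 at Sox12, 4.85 at Sox5, 4.74 at Sox6, 4.71 at Sox4, 4.59 at Sox11, 4.52 at Sox21 and 4.26 at Sox2. Among the 8966 genes with a Chd8 peak at an end, whose median was 4.85, these values stood between percentile 22.1 for Sox2 and percentile 54.4 for Sox12. The order has no spread to set it against, because Chd8 was measured in 1 library. These genes, which leave out Sox13, thus had Chd8 peaks at an end without standing among the highest folds of the list. Of the peaks ranked here, those of Sox12, Sox5, Sox11 and Sox2 touched a peak of input 3. Those of Sox6, Sox4 and Sox21 touched no input peak.

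Over whole loci the 8 genes held 59 Chd8 peaks, 12 peaks of Chd7 replicate 1, 16 of Chd7 replicate 2 and 3 reproducible Chd7 regions. The mocks had 0 and 0 peaks there, and the inputs had 46, 93 and 78. Every one of the 8 loci held at least 1 Chd8 peak, against 71.5% of all genes. Chd7 peaks stood in 5 of the 8 loci for replicate 1 (37.6% of all genes) and in 6 for replicate 2 (47.8% of all genes), and 4 loci (Sox21, Sox11, Sox12 and Sox5) had a peak in each Chd7 library. Reproducible regions stood in 2 loci, Sox11 and Sox12, against 16.8% of all genes. Mock peaks lay in 0.306% and 0.311% of all loci, and input peaks in 91.9%, 95.4% and 92.5% of all loci and in all 8 of the Sox loci. A peak at an end or in the body was found for 7 of 8 genes with Chd8 (49.7% of all genes), 4 with Chd7 replicate 1 (16.7%), 6 with Chd7 replicate 2 (22.8%) and 2 with reproducible Chd7 (6.36%). These locus and body shares over all genes are not matched for gene length. Sox5 and Sox6, with bodies of 954 and 570 kb, were among the 4 and had their Chd7 replicate 1 peaks in the body only.

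**Figure D2:**
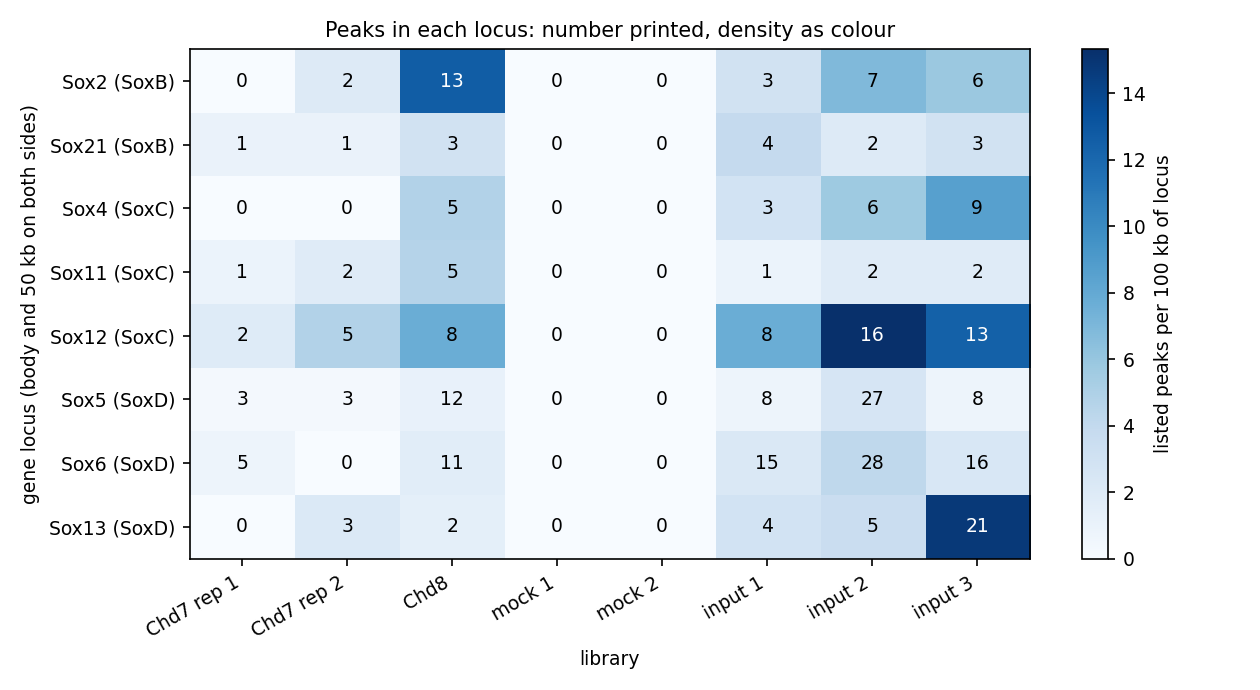
Number of listed peaks (printed) and peaks per 100 kb of locus (colour scale) for each gene (rows) in each library (columns). Sox2 had 13 Chd8 peaks and both mocks were at 0 throughout, while input 3 had 21 peaks in the Sox13 locus.

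The SoxB loci, here those of Sox2 and Sox21 only, held 16 Chd8 peaks, or 7.76 per 100 kb. The SoxC loci held 18, or 5.67 per 100 kb, and the SoxD loci 25, or 1.34 per 100 kb. Sox1, Sox3 and Sox14, SoxB genes that were not listed, had 1, 0 and 1 Chd8 peaks in their loci. The SoxB value rests on Sox2, with 12.7 per 100 kb, since Sox21 had 2.89, below Sox4, Sox11 and Sox12 with 4.77, 4.61 and 7.66. In SoxB 11 of 16 lay in the flanks, all of them around Sox2, whereas in SoxD 21 of 25 lay inside the gene bodies. In SoxC 5 lay at gene ends, 7 in bodies and 6 in flanks. The Sox5 and Sox6 bodies are 954 and 570 kb long, and those of Sox2, Sox21, Sox4, Sox11 and Sox12 are 2.47, 3.80, 4.78, 8.45 and 4.44 kb long, so bodies and flanks make up different shares of the loci.

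The Sox2 locus held more Chd8 peaks than that of nearly any gene of its size. It had 13 Chd8 peaks, and only 26 of the 7925 genes under 10 kb (0.328%) had as many, with a median of 1 in that class. Of the 13, 11 lay in a cluster of 27.0 kb around the gene, from −11.7 kb to 15.3 kb relative to the start, and covered 5.29 kb of it. Within the cluster 4 peaks lay upstream, 1 in the gene and 6 downstream, and 9 of the 11 touched no input peak. The remaining pair lay 40773 bp upstream (fold 4.34) and 42.2 kb downstream (fold 4.36). All but the last of the 13 overlapped Sox2ot, a long noncoding RNA gene that contains Sox2. Folds were modest in most of the peaks, with a median of 4.28, and the highest was 5.62 (percentile 85.8) for a peak of 114 bp at chr3:34661134-34661247, 11.1 kb downstream of the start. At a fold of at least 5 that peak was the only one left, and with flanks of 10 kb the locus held 7. The input libraries had 3, 7 and 6 peaks in the locus, counts reached by 64.8%, 53.0% and 42.1% of the genes under 10 kb.

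At the Sox2 gene itself, Chd8 had a peak of 968 bp that ended 78 bp before the start (chr3:34648950-34649917, fold 4.01, percentile 20.9) and a peak of 1066 bp inside the gene (chr3:34650521-34651586, fold 4.26), and only the second touched an input peak. Chd7 replicate 2 had 2 peaks in the locus, one 656 bp upstream of the start (chr3:34648743-34649339, fold 3.09, percentile 7.31) and one 13.2 kb downstream (chr3:34663229-34663616, fold 3.18, percentile 24.3). They overlapped Chd8 peaks by 390 and 261 bp, and neither touched an input peak. Chd7 replicate 1 had 0 peaks in the Sox2 locus, so the Chd7 peaks at Sox2 were not found in both libraries.

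Sox21, the other listed SoxB gene, had few peaks, and they gathered at the gene. Chd8 had 3 peaks in the locus, a count that 31.5% of genes under 10 kb reached. The Chd8 peak over the start (chr14:118236887-118237439) had a fold of 4.52 (percentile 52.7), and the Chd7 replicate 2 peak within it (chr14:118237036-118237172) had a fold of 3.48 (percentile 64.4); they shared 137 bp and touched no input peak. The other Chd8 peaks lay in the gene, 949 bp from the start with a fold of 4.52, where inputs 1 and 3 also had peaks, and 2184 bp from the start with a fold of 3.88. Chd7 replicate 1 had its only peak of the locus 2422 bp past the 3′ end (chr14:118230314-118230811) with a fold of 5.41 (percentile 87.0), where Chd8 and the inputs had none. The Chd7 libraries therefore gave 1 peak each at Sox21, replicate 2 at the start and replicate 1 past the 3′ end.

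Sox11 carried the one Sox gene end that both Chd7 libraries listed. The replicate 1 peak spanned chr12:27342698-27343011 with a fold of 4.74 (percentile 60.3), and the replicate 2 peak spanned chr12:27342736-27342850 with a fold of 3.12 (percentile 12.8). The Chd8 peak spanned chr12:27342091-27343084 with a fold of 4.59 (percentile 55.8), covered the start at 27342718 and contained both Chd7 peaks. All 3 peaks shared 115 bp, chr12:27342736-27342850, which lie inside the Sox11 sequence printed above. Input 3 had a peak at chr12:27342143-27342246 (fold 4.76) that touched the Chd8 peak on the side of the gene body and neither Chd7 peak. Without input-touching peaks this Chd8 peak was left out, so the Chd7 region at the start no longer met Chd8. Sox11 then kept Chd8 at its end only through a separate peak 751 bp upstream of the start (fold 4.25). The Sox11 region was lost when the replicates had to overlap by 50% of each peak, since the replicate 2 peak is 115 bp and the replicate 1 peak 314 bp long.

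The other 4 Chd8 peaks lay close to Sox11, 751 bp upstream of the start (fold 4.25) and in the body (folds 4.54, 4.08 and 3.84), of which the one with a fold of 4.08 touched an input 1 peak. Chd7 replicate 2 had a second peak in the body, chr12:27338933-27339269, with a fold of 3.53 (percentile 69.1) that overlapped the Chd8 peak with a fold of 3.84. The 5 Chd8 peaks at Sox11 all lay within the gene or 1 kb of it, and 14.9% of genes under 10 kb had as many. The inputs had 1, 2 and 2 peaks in the locus, counts reached by 87.7%, 88.2% and 77.3% of genes of that size.

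Sox12 held the other 2 reproducible Chd7 regions, neither at a gene end. The one in the gene body (chr2:152396287-152396433) had folds of 4.15 in replicate 1 and 3.85 in replicate 2 (percentiles 10.3 and 87.2), lay under a Chd8 peak with a fold of 5.28 (percentile 79.5) and touched no input peak. Its replicate 1 fold equalled the lowest value of that whole list, and its percentile there reflects ties at that value. The other, 8070 bp upstream of the start (chr2:152406116-152406484), had folds of 4.84 and 3.90 (percentiles 65.4 and 89.1) and a Chd8 peak with a fold of 4.87, and inputs 1 and 3 had peaks there too. The stretches shared by all 3 ChIP lists were 82 and 106 bp long. Near the start, Chd8 (chr2:152398238-152399180, fold 4.95) and Chd7 replicate 2 (fold 3.23) had peaks, Chd7 replicate 1 had none, and all 3 inputs had peaks of folds 3.78, 3.88 and 3.51.

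The Sox12 locus is gene-rich, and part of its count belonged to ends of neighbouring genes. Of its 8 Chd8 peaks, 3 lay within 1 kb of an end of another protein-coding gene: Trib3, which encodes a pseudokinase (fold 3.87), Zcchc3, a zinc finger protein gene (fold 4.51), and a stretch shared by Zcchc3 and 6820408C15Rik (fold 6.47, percentile 94.0). The last of these had the highest Chd8 fold of all 59 and touched peaks of inputs 1 and 2. Without peaks that touched the matching input the Sox12 locus held 4 Chd8 peaks, and without those that touched any input it held 3. Of genes under 10 kb, 3.13% had 8 Chd8 peaks or more, and 0.934% had the 5 peaks or more that Chd7 replicate 2 listed at Sox12. The inputs had 8, 16 and 13 peaks in the locus, which 18.2%, 9.16% and 14.6% of such genes reached. Of the 5 Chd7 replicate 2 peaks at Sox12, only the one in the gene body touched no input peak. Those 12.8 and 16.7 kb upstream of the start lay at ends of Zcchc3, the farther one also at an end of 6820408C15Rik.

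Sox4 differed from the other SoxC genes in having Chd8 without Chd7. Neither Chd7 library listed a peak in the Sox4 locus. Chd8 had 5 peaks, each with its nearest edge within 5 kb of the gene (14.9% of genes under 10 kb had as many). The peak over the start, chr13:28953271-28954095, had a fold of 4.71 (percentile 61.2) and touched no input peak. A peak in the body, chr13:28950365-28951078, had a fold of 6.17 (percentile 92.1) and touched an input 3 peak. The remaining 3 had folds of 4.34 at the 3′ end, 3.81 in the body and 4.29 at 4622 bp upstream of the start, a peak of 1441 bp that was the widest of the 59. Input 3 touched the last pair as well. An absent Chd7 peak says only that none passed the authors' threshold at a depth that is unknown.

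**Figure D3:**
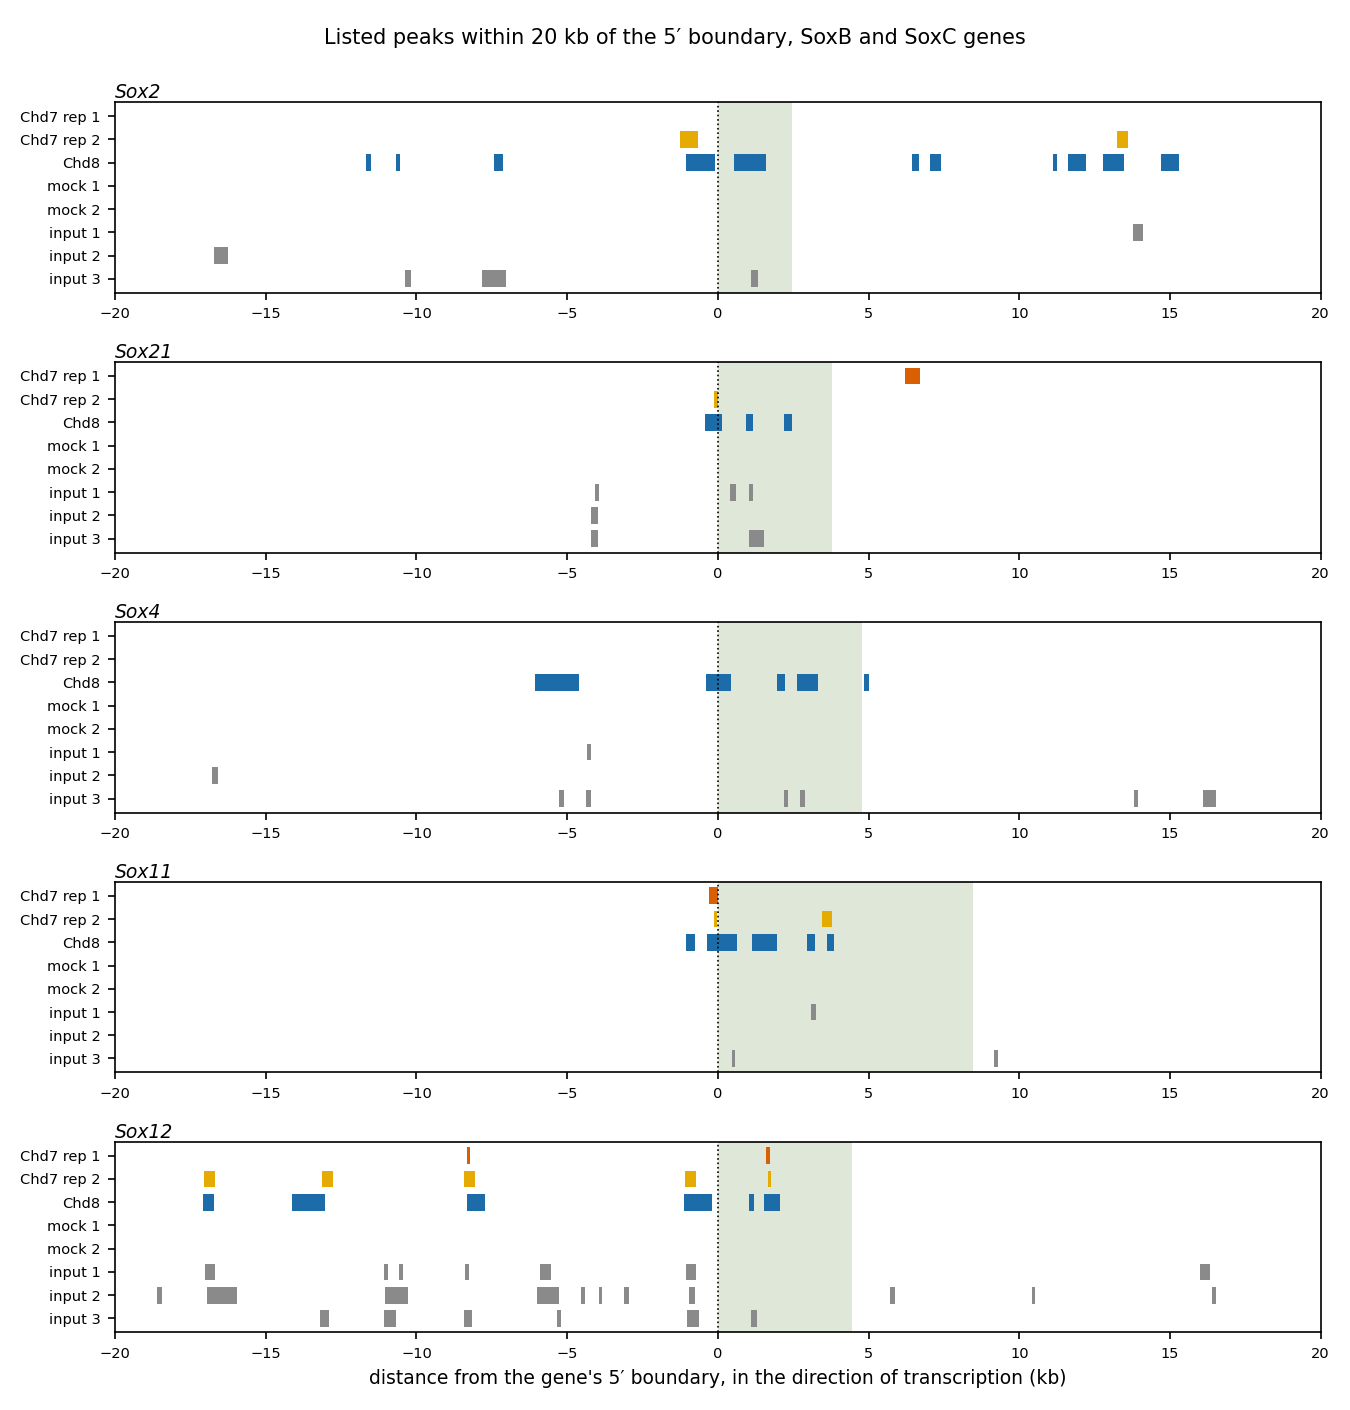
Listed peaks within 20 kb of the 5′ boundary of the SoxB and SoxC genes, with distance along the direction of transcription in kb (x axis) and 1 row per library; bars are peaks, green bands the gene bodies and dotted lines the annotated starts, and very short peaks are widened to stay visible. Chd8 peaks spread over 27.0 kb around Sox2, both Chd7 libraries meet Chd8 at the Sox11 start, and Sox4 has no Chd7 peak.

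In the SoxD genes Sox5 and Sox6 the peaks lay mainly deep in the gene bodies and largely apart from the inputs. Chd8 had 12 peaks at Sox5 and 11 at Sox6, 23 in all, of which 19 touched no input peak. Of the 227 genes of at least 500 kb, 4.41% had as many as Sox5 and 5.29% as many as Sox6, with a median of 3. At a fold of at least 5, Chd8 had 1 peak left at each of these genes, and with a −log10 q of 5 or more it had 1 at Sox5 and 0 at Sox6. Chd7 replicate 1 had 3 peaks in the Sox5 body and 5 in the Sox6 body, and 6 of these 8 overlapped Chd8. Chd7 replicate 2 had 3 at Sox5 and 0 at Sox6, and none of its peaks overlapped one of replicate 1. The inputs had 8, 27 and 8 peaks at Sox5, which 94.7%, 70.0% and 94.7% of the genes of that size reached, and 15, 28 and 16 at Sox6, which 75.3%, 69.6% and 63.0% reached.

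At Sox5, the site with the highest folds of Chd8 and of Chd7 replicate 1 was in the body, 725 kb from the 5′ boundary. There the Chd7 replicate 1 peak (chr6:144056472-144057568) had a fold of 5.54 (percentile 89.6) and the Chd8 peak (chr6:144056535-144057605) a fold of 5.87 (percentile 89.2), with 1034 bp in common and no input peak. A second pair stood 684 kb from the boundary, with a Chd7 replicate 1 fold of 4.70 and a Chd8 fold of 4.73. The third Chd7 replicate 1 peak (fold 4.16) and the 2 body peaks of Chd7 replicate 2 (folds 3.06 and 3.12) met no Chd8 peak. At the 5′ boundary Chd8 (chr6:144781502-144782222, fold 4.85) and Chd7 replicate 2 (chr6:144781508-144781920, fold 4.08, percentile 93.0) overlapped, and inputs 2 and 3 had peaks there with folds of 3.83 and 3.85. From that peak the Chd8 list had no other for 438 kb, and the other 11 lay in the distal part of the gene, on the side of the annotated start at 143947106, 835 kb from the 5′ boundary.

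Sox6 has 6 annotated starts, and the Chd7 and Chd8 peaks met at an internal one. At the start at 115824710, 216 kb inside the gene, Chd7 replicate 1 (chr7:115824712-115825606) had a fold of 4.62 (percentile 51.2) and Chd8 (chr7:115824657-115825645) a fold of 4.49 (percentile 50.8). These peaks shared 895 bp and touched no input peak. Of the other 4 Chd7 replicate 1 peaks, 3 lay under Chd8: a fold of 5.67 (percentile 91.7) with a Chd8 fold of 4.91, a fold of 5.51 (percentile 88.9) with a Chd8 fold of 3.98, and a fold of 4.69 with a Chd8 fold of 3.89. The last had a fold of 4.33 and no Chd8. Of the genes of at least 500 kb, 3.08% had 5 peaks or more of Chd7 replicate 1. These Sox6 values rest on 1 Chd7 library, since Chd7 replicate 2 listed no peak in the locus.

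Near the 5′ boundary of Sox6, Chd8 had 5 peaks within 11 kb and Chd7 had none. The peak at the boundary itself (chr7:116039849-116040489) had a fold of 4.74 (percentile 62.4) and touched no input peak. The others had folds of 5.06, 4.15, 3.89 and 3.81, of which the first pair touched input peaks. The peak with a fold of 3.89 covered the start at 116031047.

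Sox13 stood apart from the other 7 genes. Chd8 had no peak at its ends or in its body of 42.2 kb, and its 2 peaks in the locus lay in the flank, 25352 bp past the 3′ end (fold 3.90, percentile 14.7) and 18441 bp past it (fold 4.17, percentile 32.3). The nearer of these lay at an end of Etnk2, an ethanolamine kinase gene, together with a Chd7 replicate 2 peak (fold 3.50) and peaks of all 3 inputs. Of the 7610 genes between 20 and 100 kb, 58.8% had 2 Chd8 peaks or more. Chd7 replicate 2 had 2 peaks in the Sox13 body, with folds of 3.57 and 3.39, where neither Chd7 replicate 1 nor Chd8 had a peak, and the one with a fold of 3.39 touched peaks of inputs 2 and 3. Input 3 had 21 peaks over 10.1 kb of the locus, a count that 3.43% of genes of that size reached, beside 4 and 5 peaks in inputs 1 and 2.

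**Figure D4:**
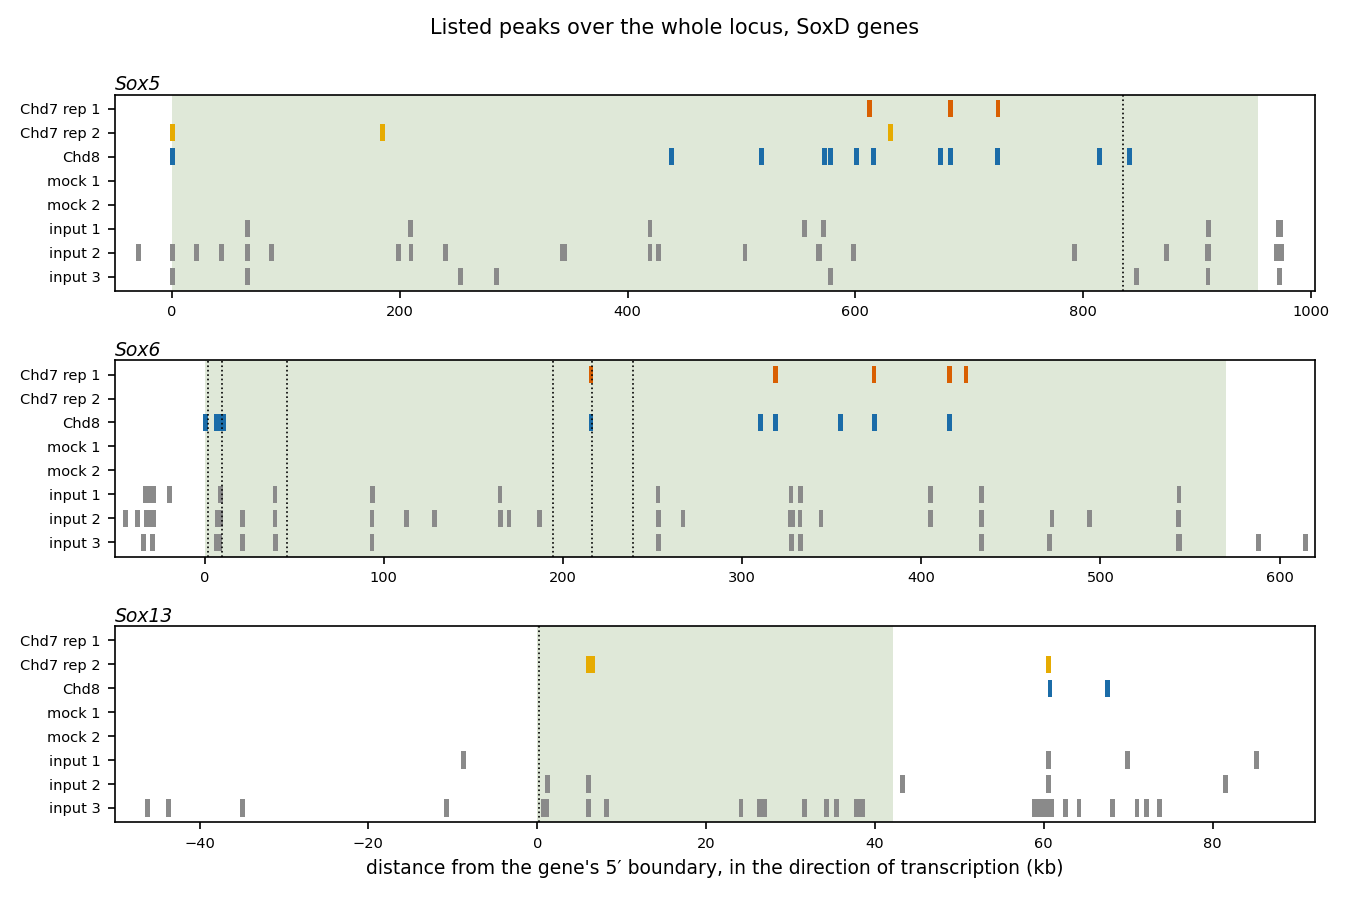
Listed peaks over the whole loci of Sox5, Sox6 and Sox13, with distance from the 5′ boundary along the direction of transcription in kb (x axis) and 1 row per library. Green bands are gene bodies and dotted lines annotated starts, and peaks are drawn at a minimum width to stay visible; Chd7 replicate 1 meets Chd8 in the bodies of Sox5 and Sox6, and Sox13 has no Chd8 peak in its body.

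Chd7 peaks in the Sox loci mostly lay on Chd8 peaks, and most Chd8 peaks there had no Chd7. Of the Chd7 replicate 1 peaks, 9 of 12 overlapped Chd8 (75.0%, 42.8 to 94.5), against 78.8% of the whole list. Of the replicate 2 peaks, 12 of 16 overlapped Chd8 (75.0%, 47.6 to 92.7), against 62.2% of the whole list, and the 3 reproducible regions did so in 3 cases, against 97.1% of all such regions. From the other side, 18 of the 59 Chd8 peaks touched a peak of either Chd7 library (30.5%, 19.2 to 43.9), against 35.4% of the whole Chd8 list. Only 3 Chd8 peaks, at Sox11 and Sox12, touched both Chd7 libraries. Each of these member shares had its list-wide share inside its interval, which describes the counts and is not a test. The intervals treat peaks of the same locus as independent. By library, 3 of 3 Chd7 replicate 1 peaks and 7 of 7 replicate 2 peaks in the SoxC loci lay on Chd8, beside 6 of 8 and 2 of 6 in the SoxD loci and 0 of 1 and 3 of 3 in the SoxB loci. These counts are small, and the interval of the 2 of 6 (4.33 to 77.7) holds the 62.2% of the whole list.

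The 18 Chd8 peaks that met Chd7 had a median fold of 4.56 (3.84 to 6.47; median percentile 54.3) and a median width of 662.5 bp. The 41 without Chd7 had a median fold of 4.26 (3.81 to 6.17; median percentile 38.0) and a median width of 286 bp. The split itself favours wide peaks, since an overlap of 1 bp was enough. The ranges of fold overlapped almost wholly. Over all 59 the median fold was 4.29, against 4.47 in the full list of Chd8 peaks, whose lowest value was 3.81. Input peaks touched 19 of the 59 (32.2%, 20.6 to 45.6), against 46.3% of the whole list. The interval treats peaks as independent, although peaks of the same locus can lie close together, and the difference from the whole list was not tested. By family, 4 of 16 in SoxB, 10 of 18 in SoxC and 5 of 25 in SoxD touched an input peak.

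**Figure D5:**
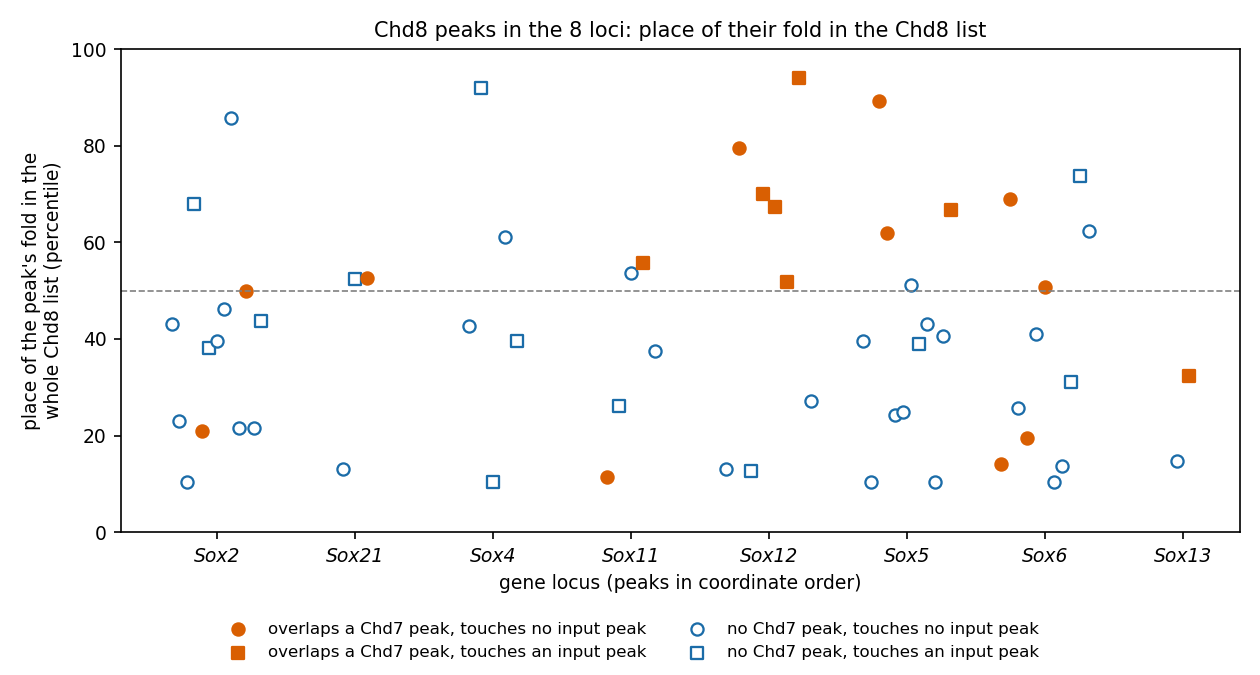
Percentile of each of the 59 Chd8 peaks by fold within the whole Chd8 list (y axis), by gene locus in coordinate order (x axis). Filled marks overlap a Chd7 peak of either library, squares touch an input peak, and the dashed line is the middle of the list; marks lie on both sides of it in every locus but that of Sox13, with the highest at percentile 94.0 in the Sox12 locus.

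The 12 other Sox genes served as the nearest comparison. Chd8 lay at an end of 3 of them, the SoxE genes Sox8, Sox9 and Sox10, regulators of the glial lineages, with folds of 4.25, 4.20 and 4.53, against 41.0% of all protein-coding genes. A reproducible Chd7 region lay at an end of 0 of the 12 (4.83% of all genes), Chd7 replicate 2 had one peak, at Sox10 (fold 3.08, 17.0%), and input 3 had peaks at 7 (45.2%). The 12 include Sox1, Sox3 and Sox14, which are SoxB genes too and had no Chd8 peak at an end. Chd8 was thus at an end of 7 of the 8 listed genes, against 3 of the 12 other Sox genes, which lay below the share over all genes. This sets the listed genes against the rest, and not family against family. The difference was not tested. Over whole loci, Chd8 peaks stood in 8 of these 12 (71.5% of all genes), and reproducible Chd7 regions in 2, Sox10 and Sox15 (16.8%). The highest Chd8 counts among the 12 loci were 12 at Sox8, 10 at Sox10 and 9 at Sox15, beside 13 at Sox2. High Chd8 counts were thus not particular to the 8 genes.

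Among 19 partners and targets of these Sox proteins, Chd8 lay at an end of 13 (41.0% of all genes), a reproducible Chd7 region at 4 (4.83%) and an input 3 peak at 14 (45.2%). The 4 were Pou3f2 and Pou3f3, POU-domain proteins of the class that partners SoxB and SoxC proteins, Ctbp2, a corepressor of the family that SoxD proteins recruit, and Hes5, an effector of Notch signalling. Their Chd7 folds in replicates 1 and 2 were 5.79 and 3.56 at Pou3f2, 4.15 and 3.48 at Pou3f3, 4.28 and 3.45 at Ctbp2, and 4.73 and 4.18 at Hes5. Their Chd8 folds were 5.45, 5.23, 5.13 and 6.47 in that order. The highest Chd8 fold at an end of a Sox gene here, 4.95 at Sox12, lay below those of Hes5, Pou3f2 and Pou3f3, the 3 highest of the 19. Input 3 had a peak at an end of each of these 4 genes.

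For each gene with a ChIP peak at an end, which leaves out Sox13, the gene with the pattern most like it was found by Euclidean distance over the 8 lists, in log2(1 + highest fold at a gene end). It was Fam122b for Sox2 (distance 0.00836), Dhx34 for Sox21 (0.0586), Kcnj6 for Sox4 (0.000134), Leprot for Sox11 (0.211), Clcn2 for Sox12 (0.0258), Cep152 for Sox5 (0.0592) and Slc25a5 for Sox6 (8.5e-05). Sox11 was farthest from its most alike gene, and had peaks at its ends in 4 of the 8 lists. Sox11 had Chd7 folds of 4.74 and 3.12, a Chd8 fold of 4.59 and an input 3 fold of 4.76 at its ends, against 4.15, 3.40, 4.40 and 4.41 at Leprot. Sox4 and Sox6 had a peak in 1 list each, so that likeness there reflects a single Chd8 fold.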

How the data were processed

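Broad peak lists of mm10, 1 for each of the 8 libraries, were deposited. Per the submitters' processing notes, Bowtie2, SAMtools, Picard and MACS were used, and the sources used here do not state their versions and settings or the control behind each list. The authors' lists give each peak a score, a fold (a ratio over the caller's local background) and its −log10 p and −log10 q. Peaks were called per library, and depth is unknown. Titles set the groups, although the track lines of Chd7 replicate 2 and of Chd8 are numbered otherwise. The extraction notes name the O4 antibody for isolating the complexes, which is unresolved.

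Gene boundaries came from a RefSeq table of mm10 without mitochondrial genes, and start sites, strands and sequences from a RefSeq promoter table (GRCm38.p6), which held all 8 genes and 17492 of 21887 protein-coding genes. ChIP peaks that touched a mock peak by 1 bp were removed. Reproducible Chd7 regions are the merged spans of replicate peaks that overlap by 1 bp. A peak belongs to a gene end within 1 kb, then to the body, then to the 50 kb flanks. Percentiles are ranks of fold within a list. The computations used Python 3.11.15, numpy 2.4.6 and scipy 1.17.1, and the overlap code was tested on simulated data, where it recovered 12 of 12 cases.

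No test was run: counts are described beside all protein-coding genes. The genes, the lists of other Sox genes, partners, targets and markers, and the naming rule were chosen with earlier results of these data known. Named are the 8 genes, genes with an end at a ChIP peak of a Sox locus, other Sox genes, partners with a reproducible Chd7 region or one of the 3 highest Chd8 folds at an end, and the most alike gene. Alternatives were stricter peaks, mock peaks kept, input peaks removed, other windows and overlaps, and each Chd7 library alone.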

Additional observations from a re-analysis of the deposited data

How the results depend on the processing

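Retaining mock-touching peaks changed no count in the 8 Sox loci, and flanks of 10 kb gave 3 reproducible Chd7 regions and 47 Chd8 peaks, with 7 at Sox2, 4 at Sox12 and 0 at Sox13. At a −log10 q of 5 or more, 0 genes had Chd8 or reproducible Chd7 at an end (8.28% and 0% of all genes), and the loci held 3 Chd8 peaks (median 0 per gene) and 0 Chd7 regions, with 0 overlaps. With a fold of at least 5 the values were 0 and 0 (17.8% and 0.0137% of all genes), 6 Chd8 peaks (median 1), 0 Chd7 regions and 0 overlaps. Without peaks that touched the matching input, Chd8 ends numbered 5 (16.7% of all genes) and Chd7 ends 1 (1.75%), with a median of 4 Chd8 peaks per gene, against 6.5 in all, and 1 overlap. Without any input-touching peak they were 5 (13.1%) and 1 (0.539%), with a median of 3 and 1 overlap. A gene-end window of 5 kb gave 7 genes with Chd8 (49.0% of all genes) and 2 with Chd7, Sox11 and Sox12 (6.22%). A reciprocal overlap of 50% between Chd7 replicates left 0 gene ends (1.72% of all genes) and 1 region, which overlapped Chd8. Each Chd7 library alone gave 1 to 5 gene ends (10.4% to 17.0% of all genes), 12 to 16 peaks and 9 to 12 overlaps. Of the alternatives chosen after seeing the data, exchanging inputs 2 and 3 gave 5 Chd8 ends and 1 Chd7 end (29.1% and 0.758% of all genes), annotated starts gave 6 and 1 (43.6% and 5.23%), and leaving out peaks at ends of other coding genes gave 55 Chd8 peaks. The cause of these shifts was not tested. Read depth is unknown and limits what an absent peak can show. No paired analysis was possible because the Chd8 library shares no replicate number with the Chd7 libraries, although it shares a mock with Chd7 replicate 2, and no result comes from a test.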

Other observations

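In the Sox loci the −log10 q of the 12 Chd7 replicate 1 peaks ran between 1.48 and 3.91, that of the 16 Chd7 replicate 2 peaks between 1.30 and 2.73, and that of the 59 Chd8 peaks between 1.81 and 6.03. Of the 13 annotated starts of the 8 genes, 7 had a Chd8 peak within 1 kb. By gene, 6 of the 8 had one at an annotated start, against 43.6% of the 17492 genes in the promoter table, and 5 Chd8 peaks covered a start: those of Sox21, Sox4, Sox11 and 2 of Sox6.

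The stretches upstream of Sox12 and Sox13 were not printed. The 250 bases before the Sox12 start held 74.4% G or C and 35 CpG, and 59 of them were covered by Chd8. Those before the Sox13 start held 72.4% G or C and 31 CpG, and none was covered by a ChIP peak. Both lay in the CpG-rich part of all starts, at percentiles 96.7 and 94.1 of the CpG count.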
